A study of Mus musculus with 2 samples.

Results

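The Ms4a genes encode small proteins that cross the cell membrane several times, and 8 of them are followed here across the immune cells of a mouse melanoma: Ms4a1, Ms4a4a, Ms4a4b, Ms4a4c, Ms4a6b, Ms4a6c, Ms4a6d and Ms4a7. They were chosen by symbol from the 21 Ms4a genes and 31253 genes that the files list. Their levels played no part in how cells were assigned to lineages. Cd45+ cells were sorted from B16-F10 tumors, a melanoma cell line of C57BL/6 origin that was grown under the skin and harvested on day 10, and were profiled in 2 single-cell libraries. One library came from Irg1+/+ mice and one from Irg1-/- mice, and each pooled tumor pieces of 3 animals that cannot be told apart in the files. Irg1, listed as Acod1, encodes the enzyme that makes itaconate, and the genotype is that of the mouse, since the injected tumor cells were the same in both. Sex and age were not in the labels. With 1 library per genotype, no test and no p-value could be given, and all intervals cover counting error only. After cells with 10% or more mitochondrial UMIs were left out, 6284 and 5794 cells remained, with 42105693 and 35307041 UMIs (unique molecular identifiers, each standing for 1 captured transcript). The 8 genes held 89671 UMIs, or 0.213% of the Irg1+/+ library, and 104085 UMIs, or 0.295% of the Irg1-/- library.

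Members of this family sit in the plasma membrane or in inner membranes and are found next to other receptors, whose signalling they are known to modulate. Ms4a1 is CD20, the B cell antigen that therapeutic antibodies bind, and its relative Ms4a2 is the beta chain of the high affinity IgE receptor. Ms4a4b is known from T cells, where it can associate with the costimulatory receptor GITR, while Ms4a4a and Ms4a7 are known from macrophages. In mice the Ms4a4 and Ms4a6 groups each hold several similar genes.

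The targeted gene was examined first. Acod1 had 3696 UMIs in the Irg1+/+ library and 3805 in the library labelled Irg1-/-. This was a level of 87.8 CPM (UMIs of the gene per 1000000 UMIs, 95% Poisson interval 85.0 to 90.7) against 107.8 CPM (104.4 to 111.2). In classical monocytes the values were 137.7 CPM and 131.2 CPM. The transcript was thus detected in both libraries, and its direction differed between gates. Of 20 gates with UMIs, 4 had a counting interval of the ratio below 0 and 3 above. Its level was 2151 CPM against 1611 CPM where the label was Irg1-/- in neutrophils (log2 ratio -0.42, -0.61 to -0.22) and 1065 against 351 CPM in eosinophils (-1.60, -2.08 to -1.12), and was also lower in Ccl24 macrophages (-0.98) and regulatory T cells (-1.94, from 38 and 4 UMIs). In C1q macrophages it was 87.9 CPM against 140.2 CPM where the label was Irg1-/- (0.67, 0.45 to 0.90), and it was also higher in nonclassical monocytes (0.98) and B cells (2.18, from 2 and 12 UMIs). A sum over a gene does not show whether a deleted exon was present. Genotypes below are those of the labels. Every difference between the libraries may also hold whatever else differed between the pools, which cannot be told apart.

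Cells were assigned to classes from marker genes, none of them an Ms4a gene. A class was given to 3738 cells (59.5%) and 3650 cells (63.0%) of the libraries. The 21 gates followed here leave out those classed T cells that met no T cell subset rule. They also leave out plasma cells, mast cells and basophils, and fibroblasts and endothelial cells. Gate names stand for marker combinations. Of the 81 markers, 75 were highest in their own gate in both libraries, which the gating largely fixes, since the same markers placed the cells. Classical monocytes themselves differed between the libraries in their markers: Ly6c2 had 3375 and 5668 CPM, and Chil3 3036 and 1432 CPM. The score behind the gates is continuous: 986 cells lay just inside the margin between the leading class and the next, and 545 just outside. The libraries shared 36 cell barcodes, and no Ms4a value changed beyond its interval without those cells. The Cd45+ sort still passed 59 and 10 cells with melanocyte markers. Those melanoma cells, a type that should lack the myeloid and lymphoid members, served as a guide to free RNA. Their levels were 33.4 and 27.6 CPM for Ms4a4b, 43.2 and 60.7 CPM for Ms4a6b, 56.2 and 132.4 CPM for Ms4a4c, 83.1 and 220.7 CPM for Ms4a6c, and 48.9 and 60.7 CPM for Ms4a7. Levels near these were read as background. The guide is rough, since depth differs: the median melanoma cell had 4872 and 7952 UMIs, against 2239 and 2309 in B cells. Free RNA need not make up the same share of UMIs in each gate. A limit set by the melanoma gate may thus be too low in gates of shallower cells. In the melanoma gate the 4 classical monocyte markers were all detected and summed to 395 and 756 CPM, with Ly6c2 the most abundant.

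All 21 Ms4a genes lie in a row on chromosome 19, between bases 10962293 and 11640851 of the mouse build GRCm38. Ms4a1 (11249675 to 11266241) and Ms4a7 (11321039 to 11336146) are on the minus strand. Then follow on the plus strand Ms4a4a (11375523 to 11392790), Ms4a4c (11404770 to 11427246), Ms4a4b (11443553 to 11467055), Ms4a6c (11469366 to 11482192) and Ms4a6b (11516512 to 11531256). Ms4a6d (11586604 to 11604849) is on the minus strand again. All are annotated as protein coding, and Ms4a1, Ms4a4c, Ms4a6c and Ms4a6b each overlap another annotated gene. Of the 75-base stretches of the members' transcripts, 3.72% for Ms4a4c, 1.39% for Ms4a4b, 1.25% for Ms4a6c, 1.11% for Ms4a6b and 0.479% for Ms4a6d also occur in another gene. For Ms4a1, Ms4a4a and Ms4a7 none do.

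Of these neighbors, Ms4a4c and Ms4a4b were highest in different lineages, and Ms4a6b was high in T cells as well as in monocytes, whereas Ms4a6c was high in myeloid gates. For this reason the 250 bases before a start site of each, as RefSeq gives it, are shown side by side. For Ms4a4c and Ms4a6b that start lies 2891 and 2047 bases inside the span given above, which covers all GENCODE transcripts of the gene, at the start of one of them. For Ms4a4b and Ms4a6c it lies 5 and 2 bases from the start of the span. The sequences are those of RefSeq for GRCm38.p6, on the plus strand, 5′ to 3′, and capitals mark exact runs of at least 15 bases that the window shares with its paired neighbor. The windows are chr19:11407411-11407660 for Ms4a4c, chr19:11443308-11443557 for Ms4a4b, chr19:11469118-11469367 for Ms4a6c and chr19:11518309-11518558 for Ms4a6b.
Ms4a4c: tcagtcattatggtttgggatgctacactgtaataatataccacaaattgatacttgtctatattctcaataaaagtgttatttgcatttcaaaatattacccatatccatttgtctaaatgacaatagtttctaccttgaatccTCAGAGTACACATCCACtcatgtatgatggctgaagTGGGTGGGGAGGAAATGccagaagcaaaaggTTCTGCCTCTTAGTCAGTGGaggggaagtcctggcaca
Ms4a4b: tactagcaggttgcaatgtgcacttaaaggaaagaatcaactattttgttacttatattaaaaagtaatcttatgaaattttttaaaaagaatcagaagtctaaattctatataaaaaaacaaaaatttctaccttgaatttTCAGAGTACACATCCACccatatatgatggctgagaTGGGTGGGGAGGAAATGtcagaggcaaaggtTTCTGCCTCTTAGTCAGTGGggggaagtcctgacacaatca
Ms4a6c: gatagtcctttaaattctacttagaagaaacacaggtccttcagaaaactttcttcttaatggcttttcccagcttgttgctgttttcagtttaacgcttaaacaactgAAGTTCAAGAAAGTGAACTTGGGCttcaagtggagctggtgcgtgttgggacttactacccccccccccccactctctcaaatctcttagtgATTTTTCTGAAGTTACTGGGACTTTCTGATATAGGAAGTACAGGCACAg
Ms4a6b: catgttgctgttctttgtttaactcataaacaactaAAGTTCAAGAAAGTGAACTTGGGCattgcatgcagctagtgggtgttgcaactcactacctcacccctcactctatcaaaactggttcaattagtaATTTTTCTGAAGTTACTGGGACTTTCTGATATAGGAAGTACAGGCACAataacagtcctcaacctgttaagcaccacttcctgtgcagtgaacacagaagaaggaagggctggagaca

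Ms4a4c and Ms4a4b shared 3 such runs, 54 bases in all, the longest of 20 bases. Ms4a6c and Ms4a6b shared 2 runs and 72 bases, the longest of 48. No other pair among the 7 windows found for 6 of the members shared a run of that length. Both strands were searched for 5 motifs. GAGGAA, the core of PU.1-type sites, stood 61 bases before the start in Ms4a4c and 64 bases before it in Ms4a4b, inside a shared run in both, and in none of the other windows. It occurs in 23.1% of 27025 promoters of the same length. TGTGGT, the RUNX core, was found once in Ms4a4c (14.2% of promoters) and TATAAA once in Ms4a4b (13.0%). The interferon-stimulated response element, searched as 2 GAAA blocks with any 2 bases between them, which 3.04% of promoters hold, and TTCNNNGAA, the gamma-activated site, which 7.18% hold, were in none of the windows. Such matches describe the letters only.

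**Figure D1:**
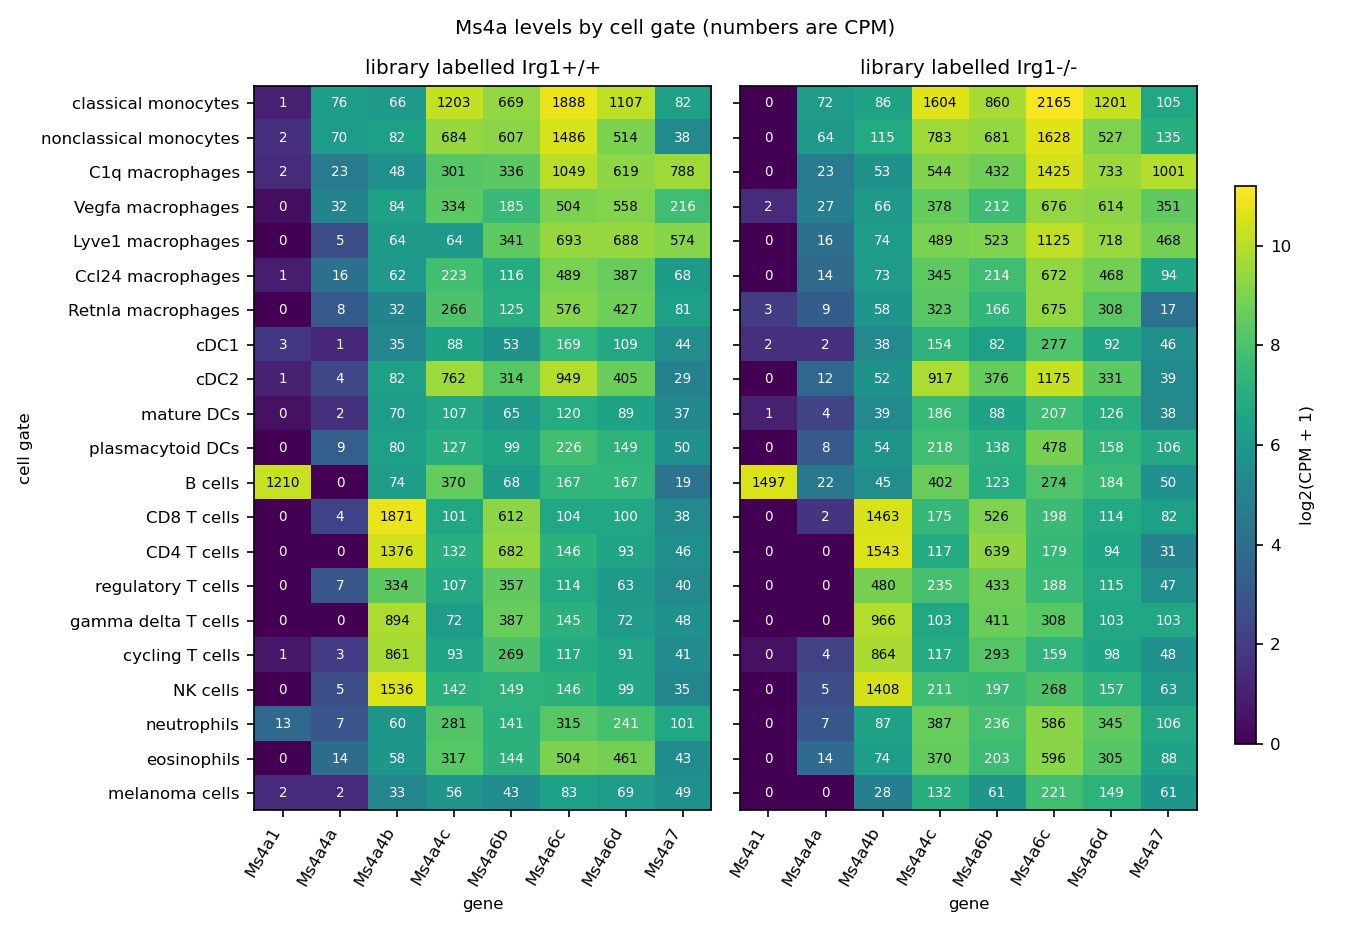
Level of the 8 Ms4a genes (columns) in 21 marker gates (rows) of each library, as CPM printed in each cell and as color on a log scale. Ms4a1 stood at 1209.6 and 1496.6 CPM in B cells, Ms4a4b was high in T and NK cells, Ms4a4c, Ms4a6c and Ms4a6d in monocytes, and Ms4a7 in C1q macrophages.

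Ms4a1 was the most restricted member. Gated B cells, 58 and 62 cells, had 1209.6 CPM (1046.2 to 1391.3) in Irg1+/+ and 1496.6 CPM (1322.7 to 1686.9) where the label was Irg1-/-. They held 76.0% and 83.2% of all Ms4a1 UMIs. No other gate had more than 7 Ms4a1 UMIs, and NK, CD8 T and CD4 T cells had none. All T cells together had 2 UMIs in each library, so that the log2 ratio of B to T cells was 11.34 (9.79 to 14.7) and 11.05 (9.51 to 14.4), with few counts behind it. In the library labelled Irg1-/- the ratio fell below this interval with the gate margin doubled and with cells thinned (values under processing below). In all, 2 members were at least 2-fold higher in B than in T cells in both libraries, of 7 counted, where 7.46% of all genes were. The second was Ms4a4c, at 370 and 402 CPM in B cells against 100.1 and 133.2 CPM in T cells. In the opposite direction, 9.13% of all genes and 2 members, Ms4a4b and Ms4a6b, were at least 2-fold lower in B cells. Of 10 mature B cell genes, among them the antigen receptor chains Ighm and Ighd and the adaptor Bank1, 10 were at least 2-fold higher in B than in T cells, with medians of 7.66 and 7.40 on the log2 scale.

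Ms4a4b marked T and NK cells. CD8 T cells had 1870.8 CPM (1776.6 to 1968.7) and 1462.7 CPM (1350.5 to 1581.7), NK cells 1535.7 CPM (1464.3 to 1609.7) and 1408.3 CPM (1358.0 to 1460.0), and CD4 T cells other than regulatory ones 1376.4 CPM (1195.7 to 1576.7) and 1543.4 CPM (1335.9 to 1774.0). Thus CD8 T cells were highest in the Irg1+/+ library, whereas in the library labelled Irg1-/- the intervals of all 3 gates overlapped. Gamma delta T cells stood at 894 and 966 CPM and cycling T cells at 861 and 864 CPM. Regulatory T cells were the exception among lymphocytes with T cell receptor genes, at 334 CPM (281 to 393) and 480 CPM (387 to 589). Their log2 ratio to the other CD4 T cells was -2.04 (-2.36 to -1.73) and -1.68 (-2.06 to -1.32). Ms4a4b was the only one of 5 counted members at least 2-fold lower in regulatory T cells in both libraries, as were 2.58% of all genes, and none was 2-fold higher (3.93% of all genes).

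The share of cells with an Ms4a4b UMI, with every cell thinned to 2000 UMIs and shallower cells left out, also set regulatory T cells apart. It was 90.6% and 92.7% of CD8 T cells, 90.9% and 89.5% of NK cells, 81.1% and 90.6% of CD4 T cells, and 29.9% and 39.0% of regulatory T cells, from 180 and 82, 274 and 493, 37 and 32, and 97 and 41 cells. In melanoma cells it was 12.8% of 39 cells and 0 of 8 cells, which allows up to 36.9%. Without thinning, 88.4% and 85.4% of CD8 T cells, 40.4% and 47.9% of regulatory T cells and 35.6% of the deeper melanoma cells of the Irg1+/+ library had a UMI. Tnfrsf18, which encodes GITR and is a described partner of Ms4a4b, was instead higher in regulatory T cells, with 558 and 501 CPM, than in CD8 T cells, with 137 and 140 CPM. All myeloid gates had between 32.2 and 115.2 CPM of Ms4a4b. The 5 T cell markers were detected in classical monocytes too and summed there to 320 and 264 CPM, with Trbc2 the most abundant, and their part in the Ms4a4b level was not tested.

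Ms4a6b crossed the border between lymphoid and myeloid cells. CD4 T cells had 682 CPM (556 to 827) and 639 CPM (508 to 793), CD8 T cells 612 CPM (558 to 669) and 526 CPM (460 to 599.7), and classical monocytes 669 CPM (634 to 706) and 860 CPM (829.6 to 890.3). Its log2 ratio between classical monocytes and CD8 T cells was 0.13 and 0.70, and between classical monocytes and CD4 T cells -0.033 and 0.42. By contrast, NK cells had 148.6 CPM (127 to 173) and 197 CPM (178 to 217), with a log2 ratio to CD8 T cells of -2.04 and -1.42. It was the only one of 6 counted members at least 2-fold lower in NK cells in both libraries (2.1% of all genes), while none was 2-fold higher (2.89%). For Ms4a4b the ratio of NK to CD8 T cells was -0.28 (-0.39 to -0.18) and -0.056 (-0.18 to 0.072), and the second interval held 0. In B cells Ms4a6b had 11 and 22 UMIs, or 67.9 and 122.9 CPM. This was within 2-fold of the melanoma gate (43.2 and 60.7 CPM) only in the Irg1+/+ library.

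Within T cells both lymphoid members were lower in cells that expressed proliferation genes. Ms4a6b had 268 and 293 CPM in cycling T cells against 502 and 518 CPM in non-cycling ones (log2 ratio -0.90 and -0.82), and Ms4a4b 861 and 864 CPM against 1171.3 and 1141.2 CPM (-0.44 and -0.40). None of 6 counted members was 2-fold different in both libraries. Among all genes, 5.7% were higher and 5.31% lower by that measure. Ms4a4b and Ms4a6b were also counted in the same cells. Of thinned CD8 T cells 61.7% and 59.8% had UMIs of both, against products of the single shares of 59.4% and 58.8%. In regulatory T cells the values were 17.5% against 12.9% in 97 cells (Irg1+/+) and 29.3% against a product of 19.99% in 41 cells (labelled Irg1-/-).

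**Figure D2:**
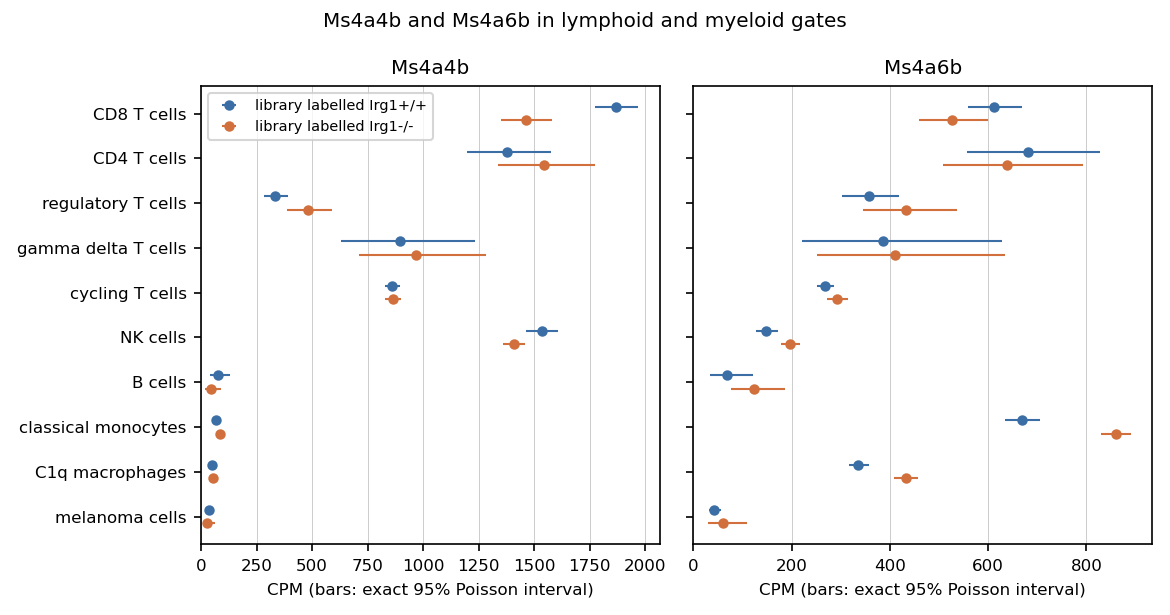
CPM of Ms4a4b and Ms4a6b in 10 gates of the Irg1+/+ library and the library labelled Irg1-/-, with 95% Poisson intervals as bars. Regulatory T cells sit at 334 and 480 CPM of Ms4a4b, below CD8, CD4 and NK cells, and NK cells sit at 148.6 and 197 CPM of Ms4a6b, below CD8 and CD4 T cells.

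Classical monocytes, marked by Vcan, Ly6c2, Chil3 and Ccr2, had the highest level of 4 members in both libraries. Ms4a6c was at 1888.0 CPM (1828.4 to 1949.2) in the Irg1+/+ library and 2165.2 CPM (2117.5 to 2213.7) where the label was Irg1-/-. Ms4a4c was at 1202.8 CPM (1155.3 to 1251.8) and 1604.2 CPM (1563.2 to 1646.0). Ms4a6d, found in myeloid cells, was at 1107.5 CPM (1061.9 to 1154.5) and 1201.0 CPM (1165.5 to 1237.2). Their intervals in the 2 libraries did not overlap. Ms4a4a, which marks macrophages in other tissues, was at a low 76.4 CPM (64.7 to 89.5) and 71.5 CPM (63.1 to 80.8), intervals that did overlap. Nonclassical monocytes were near it with 69.5 and 64.4 CPM, and C1q macrophages had 22.7 and 23.3 CPM. With cells thinned to 2000 UMIs, nonclassical and not classical monocytes were highest in Ms4a4a in the Irg1+/+ library.

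Against CD8 T cells, 4 of 7 counted members were at least 2-fold higher in classical monocytes in both libraries, where 12.3% of all genes were, and 1 was lower, where 15.4% were. The log2 ratios were 4.18 and 3.44 for Ms4a6c, 3.56 and 3.19 for Ms4a4c, and 3.46 and 3.38 for Ms4a6d. Ms4a4a had 4.11 and 4.36, with only 3 and 1 UMIs in CD8 T cells. Ms4a4b, the lower one, had -4.81 and -4.08. Against CD4 T cells the counts were the same, 4 higher (11.6% of all genes) and 1 lower (14.2%). CD8 T cells lay within 2-fold of the melanoma gate for Ms4a4c, at 101.3 and 174.7 CPM, and for Ms4a6c, at 103.9 and 198 CPM. The classical monocyte markers summed to 1871 and 2115 CPM in CD8 T cells, most of it Ly6c2, which T cells also express.

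Nonclassical monocytes, marked by Ace, Treml4 and Spn, kept most of this pattern. Ms4a6c was at 1485.7 CPM (1385.3 to 1591.5) and 1628.3 CPM (1519.6 to 1742.6), and Ms4a4c at 684 and 783 CPM. Ms4a6d was at 514 and 527 CPM, a log2 ratio to classical monocytes of -1.11 and -1.18. It was the only one of 7 counted members at least 2-fold lower in both libraries (1.51% of all genes), and none was 2-fold higher (2.44%). Ms4a7 took different directions in the 2 libraries, with 38.4 against 82.3 CPM in the Irg1+/+ library and 134.7 against 104.7 CPM in the library labelled Irg1-/-.

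Ms4a7 was the macrophage member. C1q macrophages had 788 CPM (758 to 819.7) and 1001.1 CPM (963.5 to 1039.9), and classical monocytes 82.3 CPM (70.3 to 95.9) and 104.7 CPM (94.4 to 115.8). The intervals of the 2 gates were far apart in both libraries. The log2 ratio was 3.25 (3.03 to 3.49) and 3.26 (3.10 to 3.42), a fold of 9.54 and 9.55. With the margin between gates doubled it was 3.78 and 4.22. No other member was at least 2-fold higher in C1q macrophages than in classical monocytes in both libraries, 1 of 7 counted, against 7.92% of all genes. Lower by that measure were 2 members, Ms4a4c (log2 ratio -2.0 and -1.56) and Ms4a4a (-1.75 and -1.61), against 3.49% of all genes. Ms4a6c and Ms4a6d stayed high, at 1049.3 and 1425.2 CPM and at 619 and 733 CPM. Over all macrophage gates, Ms4a7 alone was 2-fold higher than in monocytes (7.31% of all genes), with log2 ratios of 2.39 and 2.58. Ms4a4a, Ms4a4c, Ms4a6b and Ms4a6c were 2-fold lower (2% of all genes).

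The make-up of the family within a gate moved in the same way. Of the UMIs of Ms4a4c, Ms4a6b, Ms4a6c, Ms4a6d and Ms4a7 together, Ms4a7 was 1.66% and 1.76% in classical monocytes and 25.5% and 24.2% in C1q macrophages. Ms4a6b was 13.5% and 14.5% in classical monocytes but 64.1% and 48.1% in CD8 T cells. In melanoma cells Ms4a7 was 16.3% and 9.73%. The 5 genes therefore did not stand in 1 ratio across the gates.

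**Figure D3:**
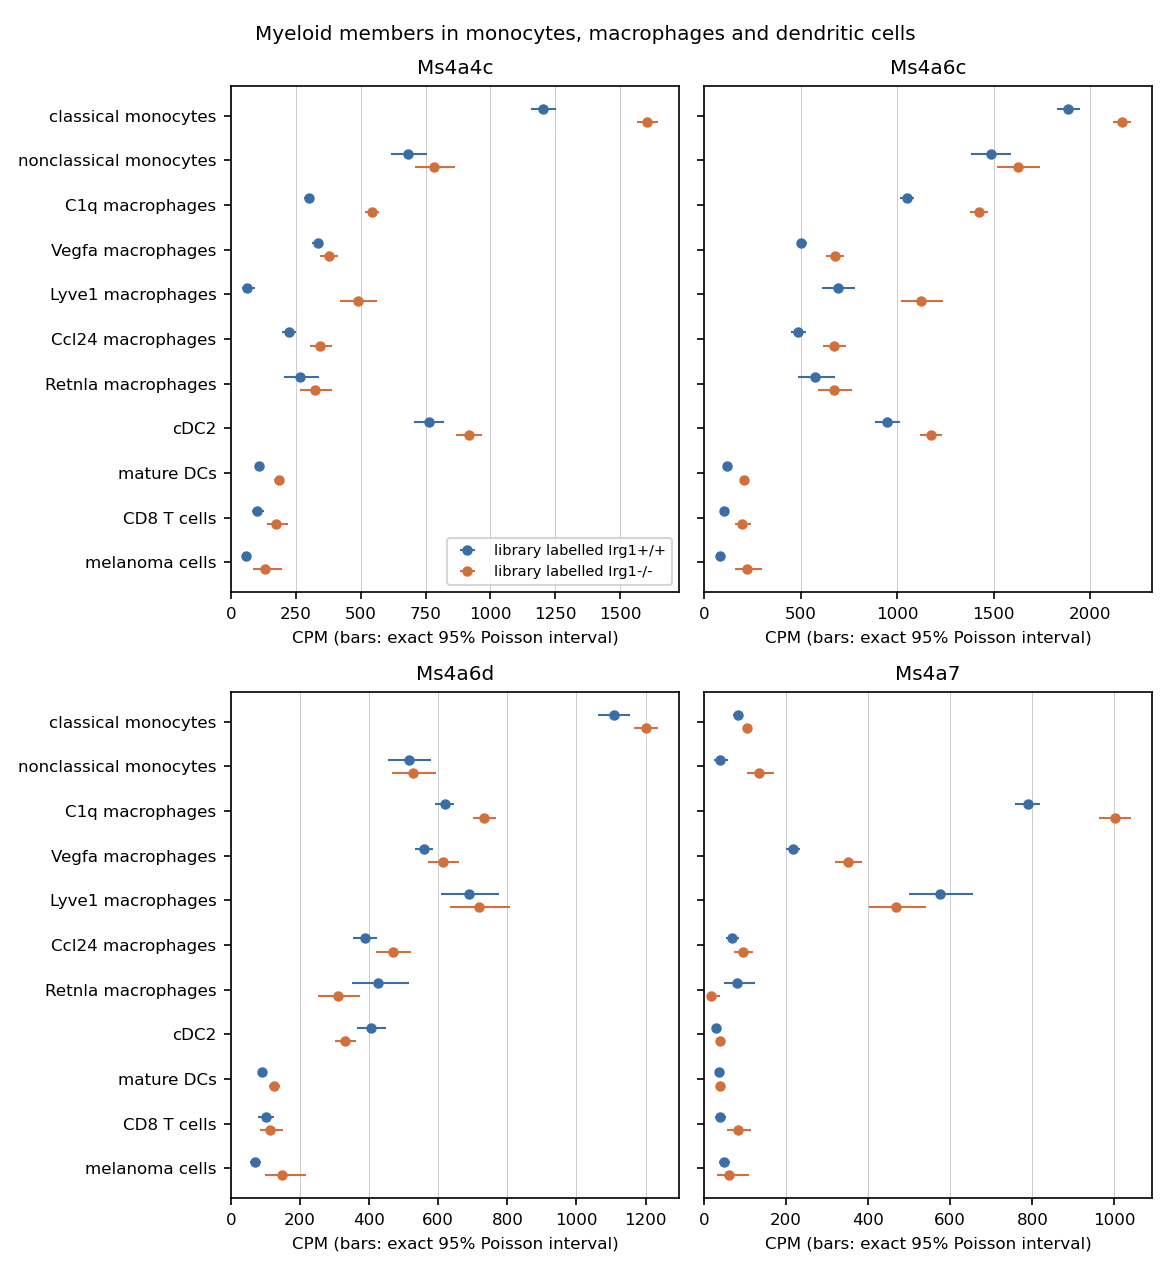
CPM of Ms4a4c, Ms4a6c, Ms4a6d and Ms4a7 in 11 gates of both libraries, with 95% Poisson intervals as bars. Ms4a7 rises to 788 and 1001.1 CPM in C1q macrophages while the other 3 genes are highest in classical monocytes.

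Macrophage states differed most in Ms4a7. Vegfa macrophages, which carry hypoxia genes, had 216 CPM (199.8 to 234) and 351 CPM (318 to 386), and Ccl24 macrophages 68.1 CPM (54.2 to 84.4) and 93.8 CPM (72.9 to 119), close to the melanoma gate. Lyve1 macrophages had 574 CPM (500 to 656) and 468 CPM (402 to 542), from 14 and 32 cells. This gate did not hold like cells in both libraries: Lyve1 itself was at 21.2 and 570 CPM, Timd4 at 0 and 336 CPM and Cd163 at 74.1 and 242 CPM, whereas Cbr2 was at 1026.6 and 1117 CPM. Retnla macrophages had 80.6 and 17.5 CPM, from 20 and 6 UMIs. The C1q state was thus highest and the Ccl24 state lowest among C1q, Lyve1, Vegfa and Ccl24 macrophages with these gates. With the gate margin doubled, Lyve1 and not C1q macrophages (1033.5 CPM) were highest in the Irg1+/+ library. C1q over Vegfa macrophages gave 2 of 7 counted members at least 2-fold higher in both libraries (4.91% of all genes), Ms4a7 (log2 ratio 1.87 and 1.51) and Ms4a6c (1.06 and 1.07), and none lower (3.47%). With TMM scaling Ms4a6c was at 0.85 in the Irg1+/+ library, under 2-fold. C1q over Ccl24 macrophages gave 3 of 7 (2.39%), Ms4a7 (3.53 and 3.41), Ms4a6b (1.52 and 1.01) and Ms4a6c (1.10 and 1.08), and none lower (2.36%).

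Among C1q macrophages, Ms4a7 was present in each subset examined. Cells with cycling genes had 673 and 971 CPM, cells high in MHC class II genes 961 and 772 CPM, and cells high in Mrc1 1014.6 and 1345.6 CPM. The intervals of the last 2 subsets overlapped in the Irg1+/+ library and not in the other. Ms4a4c was higher in the MHC class II subset than in the Mrc1 subset, 660 against 132.9 CPM and 778 against 486 CPM, log2 ratios of 2.30 and 0.67. The 4 classical monocyte markers, each detected, summed to 1791 CPM in the MHC class II subset against 746 CPM in the Mrc1 subset (Irg1+/+), and to 2166 against 1372 CPM where the label was Irg1-/-. Their part in the difference was not tested. No member was 2-fold higher in the MHC class II subset in both libraries (1.36% of all genes), and Ms4a4b was 2-fold lower (1.27%) at 25 and 27 UMIs, a direction that reversed in the Irg1+/+ library with the gate margin doubled (log2 ratio 0.42).

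Dendritic cells (DCs) separated by subset. cDC2, which share genes with monocytes, had 949 CPM (888 to 1014.0) and 1175.5 CPM (1120.7 to 1232.1) of Ms4a6c and 762 CPM (707 to 820.2) and 917 CPM (869 to 967) of Ms4a4c. In cDC1 the levels were 169 and 277 CPM of Ms4a6c and 88.0 and 153.7 CPM of Ms4a4c, and in mature DCs, the Ccr7 state that migrates to lymph nodes, 120.0 and 207 CPM and 107.1 and 185.6 CPM. Mature DCs therefore stood within 2-fold of the melanoma gate. Of 6 counted members 4 were at least 2-fold lower in mature DCs than in cDC2 in both libraries (11.7% of all genes): Ms4a6c (log2 ratio -2.98 and -2.50), Ms4a4c (-2.83 and -2.30), Ms4a6b (-2.26 and -2.10) and Ms4a6d (-2.18 and -1.39). None was higher (9.11%). Ms4a7 was at 28.9 and 39.4 CPM in cDC2, at or below its melanoma level.

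Cells with a UMI gave the same picture at equal depth. After thinning to 2000 UMIs, which left 366 and 615 classical monocytes and 225 and 218 C1q macrophages, Ms4a6c was seen in 96.4% and 96.3% of classical monocytes, 20.6% and 26.8% of CD8 T cells and 10.3% and 37.5% of melanoma cells, the last from 8 cells (95.4% and 96.4%, 28.4% and 39.0%, and 54.2% of melanoma cells of the Irg1+/+ library without thinning). Ms4a7 was seen in 62.7% and 65.1% of C1q macrophages, 12.8% and 11.7% of classical monocytes and 12.8% and 12.5% of melanoma cells, 5 of 39 and 1 of 8 (unthinned 69.7% and 77.2%, 21.6% and 26.2%, and 39.0% and 50% of 59 and 10 cells). By CPM monocytes were above the melanoma gate, at 82.3 and 104.7 CPM against 48.9 and 60.7 CPM, but within 2-fold of it. Ms4a4c was seen in 83.9% and 90.7% of classical monocytes and 40.0% and 61.0% of C1q macrophages (unthinned 89.0% and 94.3%, and 60.4% and 76.1%). Members were found together more often than the product of their shares in 31 of 34 pairs of genes and gate by library, by up to 9.28 percentage points, and less often in 3. Ms4a6d with Ms4a6b was seen in 38.7% and 45.9% of C1q macrophages, against products of 33.5% and 41.8%. Ms4a7 with Ms4a6c was seen in 50.7% and 57.3% of them, against 52.1% and 56.2% (unthinned 64.6% and 73.6%, against 56.1% and 67.7%), and Ms4a4c with Ms4a6c in 81.7% and 88.1% of classical monocytes, against 80.9% and 87.3%.

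Monocytes that express interferon genes had levels of Ms4a4c and Ms4a6c close to those of other monocytes, and the small differences took opposite signs in the 2 libraries. Interferon-high monocytes were classical monocytes with Cxcl9 and Cxcl10, 69 and 139 cells, and interferon-low ones numbered 307 and 479. Ms4a4c was at 1366.3 CPM (1247.8 to 1493.1) against 1183.0 CPM (1127.5 to 1240.4) in the Irg1+/+ library, and at 1522.3 CPM (1435.6 to 1612.8) against 1627.3 CPM (1577.7 to 1678.0) where the label was Irg1-/-. The log2 ratios were 0.21 (0.060 to 0.35) and -0.096 (-0.19 to -0.0015). For Ms4a6b and Ms4a6d the values lay within 0.26 of 0. Ms4a6c had 0.12 and -0.12, Ms4a7 0.51 and -1.20, and Ms4a4a, the one with the same sign in both, -0.33 and -1.37. None of 7 counted members was at least 2-fold higher in both libraries (0.839% of all genes) or lower (0.657%). In the same contrast 9 of 12 type II interferon genes were at least 2-fold higher, with a median log2 ratio of 1.45 and 1.45, and 6 of 19 type I genes, with 1.24 and 0.52. The split itself may fix part of this rise, since it used the interferon genes Cxcl9 and Cxcl10. Gbp2, a guanylate-binding protein induced by interferon gamma, was at 5096 against 1193 CPM and at 4833 against 1386 CPM.

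**Figure D4:**
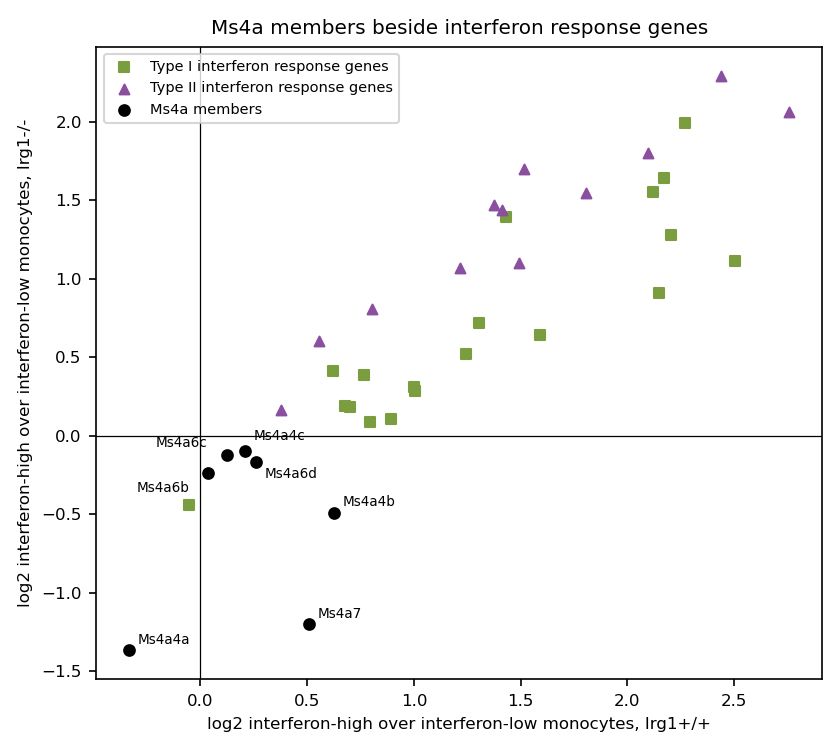
Log2 ratio of CPM in interferon-high over interferon-low classical monocytes, in the Irg1+/+ library (x axis) and in the library labelled Irg1-/- (y axis), for the Ms4a members (black) and for type I and type II interferon genes. Ms4a4c lies near 0 at 0.21 and -0.096, whereas 9 of 12 type II genes lie past 2-fold on both axes.

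Genes with the most similar profile over the 42 gate sums (21 gates in 2 libraries, 10627 genes that were not gate markers) are given as a description, since the points share libraries and totals. Ms4a4b was most like Trbc1 (r of log2 CPM 0.95), a T cell receptor constant region, and Il2rb (0.94), a chain of the interleukin receptors of T and NK cells. Ms4a6c was most like the myeloid lectins Clec4a1 (0.94) and Clec4a3 (0.94) and Csf1r (0.93), the receptor for macrophage colony-stimulating factor. Ms4a6d was most like Csf1r (0.95), then Ms4a6c (0.93) and Ifi207 (0.92). Ms4a4c had Ifitm3 (0.85), Ms4a6c (0.84) and Klra2 (0.81), and Ms4a7 had Cd93 (0.81), Apoe (0.78) and Ccl8 (0.77). Ms4a4a had Ticam2 (0.86), Gm9733 (0.85) and Slc30a1 (0.84). Ms4a6b, with its mixed profile, reached no more than 0.82 (Lcp2), followed by Gbp7 (0.73) and Parp14 (0.72). Ms4a1 had the immunoglobulin genes Igkv1-117 (0.87) and Igkc (0.81) and the B cell coactivator Pou2af1 (0.83). By rank the likeness of some pairs was weaker, with a Spearman rho of 0.43, -0.098 and 0.21 for these 3 genes with Ms4a1 and 0.38 for Ccl8 with Ms4a7. Between members the profiles of the neighbors Ms4a4b and Ms4a4c had r = -0.38, and those of Ms4a6b and Ms4a6c 0.42.

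The described partners of the family were measured beside it. Fcer1g and Tyrobp, adaptors of activating receptors, were high in classical monocytes (3718 and 4077 CPM, 2127 and 2000 CPM), C1q macrophages (4114 and 4901 CPM, 1492 and 1579 CPM) and NK cells (2484 and 2876 CPM, 1693 and 1766 CPM). Trem2, a lipid receptor of macrophages, was at 61.4 and 48.6 CPM in classical monocytes and 284 and 223 CPM in C1q macrophages. It was the only one of 5 counted partners at least 2-fold higher in C1q macrophages in both libraries, where 7.92% of all genes were. Nlrp3, the inflammasome sensor, went from 624 and 513 CPM in classical monocytes to 334 and 285 CPM in C1q macrophages.

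Between the libraries, Ms4a members were more often higher than lower in the library labelled Irg1-/-, in which Acod1 was lower in some gates and higher in others. Of 168 pairs of member and gate 128 had at least 20 UMIs, and 36 of these (28.1%) were at least 1.5-fold higher, against 8.88% of all gene and gate pairs. At least 1.5-fold lower were 5 (3.91%), against 10.6% of all pairs. With cells thinned to 2000 UMIs 38 pairs (29.7%) were higher and 13 (10.2%) lower, against 18.6% and 19.2% of all pairs under that setting. Many pairs lay near background: 66 of the 128 were over 2 times the melanoma gate in both libraries, a limit chosen after the values were seen, and of these 10 (15.2%) were higher and 1 (1.52%) lower, against 9.09% and 9.44% of the 20449 pairs of any gene over that limit. The pairs are not independent, since all rest on the same 2 pools. The interval, which covers counting error only, lay above 0 for 56 pairs and below 0 for 8.

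Ms4a6c and Ms4a4c gave 11 and 9 of the 36 higher pairs, and 3 and 2 of the 10 over 2 times the melanoma gate, where Ms4a6b gave 3. Ms4a6c was higher in 21 of 21 gates, with a median log2 ratio of 0.70, intervals above 0 in 16 gates and a range from 0.13 in nonclassical monocytes to 1.42 in melanoma cells. In 10 of these gates, among them CD8 T cells, NK cells and mature DCs, it was within 2-fold of the melanoma gate in at least 1 library. In the other 11 it was higher in 11, with a median of 0.42 and intervals above 0 in 8. Ms4a4c was higher in 19 of 20 gates, with a median of 0.51 and intervals above 0 in 14, and in the 10 gates over 2 times the melanoma gate it was higher in 10, with a median of 0.27 and intervals above 0 in 5. In C1q macrophages Ms4a4c went from 301 CPM (283 to 321) to 544 CPM (516 to 572), a log2 ratio of 0.85 (0.73 to 0.97). It was the one member of 7 counted there past 1.5-fold, as were 4.42% of all genes. In the same gate Ms4a6c had 0.44 (0.37 to 0.51), Ms4a6b 0.36, Ms4a7 0.35 (0.27 to 0.42) and Ms4a6d 0.24. When each C1q macrophage was thinned to 2000 UMIs, Ms4a4c had 0.49, under 1.5-fold. In classical monocytes Ms4a4c had 0.42 (0.35 to 0.48), Ms4a6b 0.36, Ms4a7 0.34, Ms4a6c 0.20 (0.14 to 0.25) and Ms4a6d 0.12, all under 1.5-fold, a difference that 6.51% of all genes passed upward.

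Markers of other cells moved with several of these values, but not with all. In C1q macrophages the 4 classical monocyte markers, all detected, summed to 974 and 1555 CPM, a log2 ratio of 0.67, of which Ly6c2 made 761 CPM where the label was Irg1-/-, a gene that was also higher there in classical monocytes (above). In Lyve1 macrophages, where Ms4a4c went from 63.5 to 489 CPM (2.92) between cells that differed in Lyve1 and Timd4 as given above, they summed to 619 and 2466 CPM (1.99). There the median cell had 30742 UMIs in the Irg1+/+ library and 10995.5 in the other, and 8 of 8 dissociation stress genes were at least 1.5-fold higher in the second library, where 17% of all genes were. In mature DCs, where Ms4a6c and Ms4a4c both had 0.79, the monocyte markers summed to 425 and 704 CPM (0.73), and in melanoma cells to 395 and 756 CPM (0.94). In NK cells, where Ms4a6c went from 146 to 268 CPM (0.88, 0.63 to 1.14), they summed to 1498 and 1729 CPM, with Ccr2 the most abundant. Elsewhere the monocyte markers were lower while Ms4a6c was higher. They summed to 883 and 854 CPM in B cells, where Ms4a6c had 167 and 274 CPM. In regulatory T cells the sums were 1851 and 1592 CPM, with Ms4a6c at 114 and 188 CPM. In gamma delta T cells they were 2923 and 2343 CPM, with Ms4a6c at 145 and 308 CPM. The part of such RNA in the Ms4a values was not tested.

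Interferon genes were also higher in the library labelled Irg1-/- in many gates, but not in all. The median log2 ratio of the type I list was above 0 in 19 of 20 gates and that of the type II list in 16 of 21. In C1q macrophages 9 of 19 type I genes and 7 of 12 type II genes were at least 1.5-fold higher (4.42% of all genes), with median log2 ratios of 0.50 and 0.59, and in classical monocytes 12 of 19 and 3 of 12 (6.51%), with 0.60 and 0.41. In Vegfa macrophages the type I median was 0.12 and the type II median 0.62. In CD8 T cells 3 of 18 counted type I genes were higher (9.45%) and 6 lower (10.5%), with a median of -0.27. The type II median there was 0.14. In melanoma cells the type II median was -0.71 and the type I median 0.26. In the MHC class II subset of C1q macrophages the type I median was -0.022 and the type II median 0.40. Of 8 dissociation stress genes 0 were past 1.5-fold in C1q macrophages (median 0.21) and 2 in classical monocytes (0.40). In nonclassical monocytes 6 were higher (median 0.69, 8.33% of all genes) and in cDC1 5 (0.68, 6.3%). In cDC2 3 were higher (7.77%) and 1 lower (9.78%), with a median of 0.52. In plasmacytoid DCs 0 were higher (9.5%) and 4 lower (11.1%), with a median of -0.36. Of the partners none was 1.5-fold higher in C1q macrophages or classical monocytes. In C1q macrophages Ms4a4c, at 0.85, lay above both list medians. Its lower value with thinned cells, given above, cannot be set against them, since the list medians were not computed with thinned cells. In classical monocytes its 0.42 lay below the type I median of 0.60 and close to the type II median of 0.41. The part of interferon in these values was not tested.

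Ms4a4b pointed both ways between the libraries. It was above 0 in 13 of 21 gates and below in 8, with a median log2 ratio of 0.11, and past 1.5-fold upward in 1 gate, Retnla macrophages (0.80, -0.39 to 2.25, from 8 and 20 UMIs), and downward in 3. In CD8 T cells it had -0.35 (-0.49 to -0.22), in NK cells -0.13 (-0.21 to -0.039), in cycling T cells 0.0051 (-0.078 to 0.087) and in regulatory T cells 0.53 (0.13 to 0.91). In mature DCs it went from 69.8 to 39.3 CPM (-0.82, -1.23 to -0.44), and in cDC2 from 82.4 to 51.6 CPM (-0.68). The 5 T cell markers were all detected in those gates and were lower too. They went from 461 to 316 CPM in mature DCs and from 550 to 247 CPM in cDC2. Trbc2 was the most abundant, except in cDC2 of the Irg1+/+ library, where Trac was. The same markers were also lower in classical monocytes (320 and 264 CPM) and nonclassical monocytes (360 and 252 CPM). There Ms4a4b was higher in the library labelled Irg1-/-, at 66.4 and 86.5 CPM and at 82.3 and 115.2 CPM. The part of these markers was not tested. Ms4a1 in B cells had 0.31 (0.036 to 0.58), while of 10 mature B cell genes 0 were at least 1.5-fold higher (13.2% of all genes) and 1 was lower (13.1%). Ms4a4a had at least 20 UMIs in only 6 gates and its interval held 0 in all of them.

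**Figure D5:**
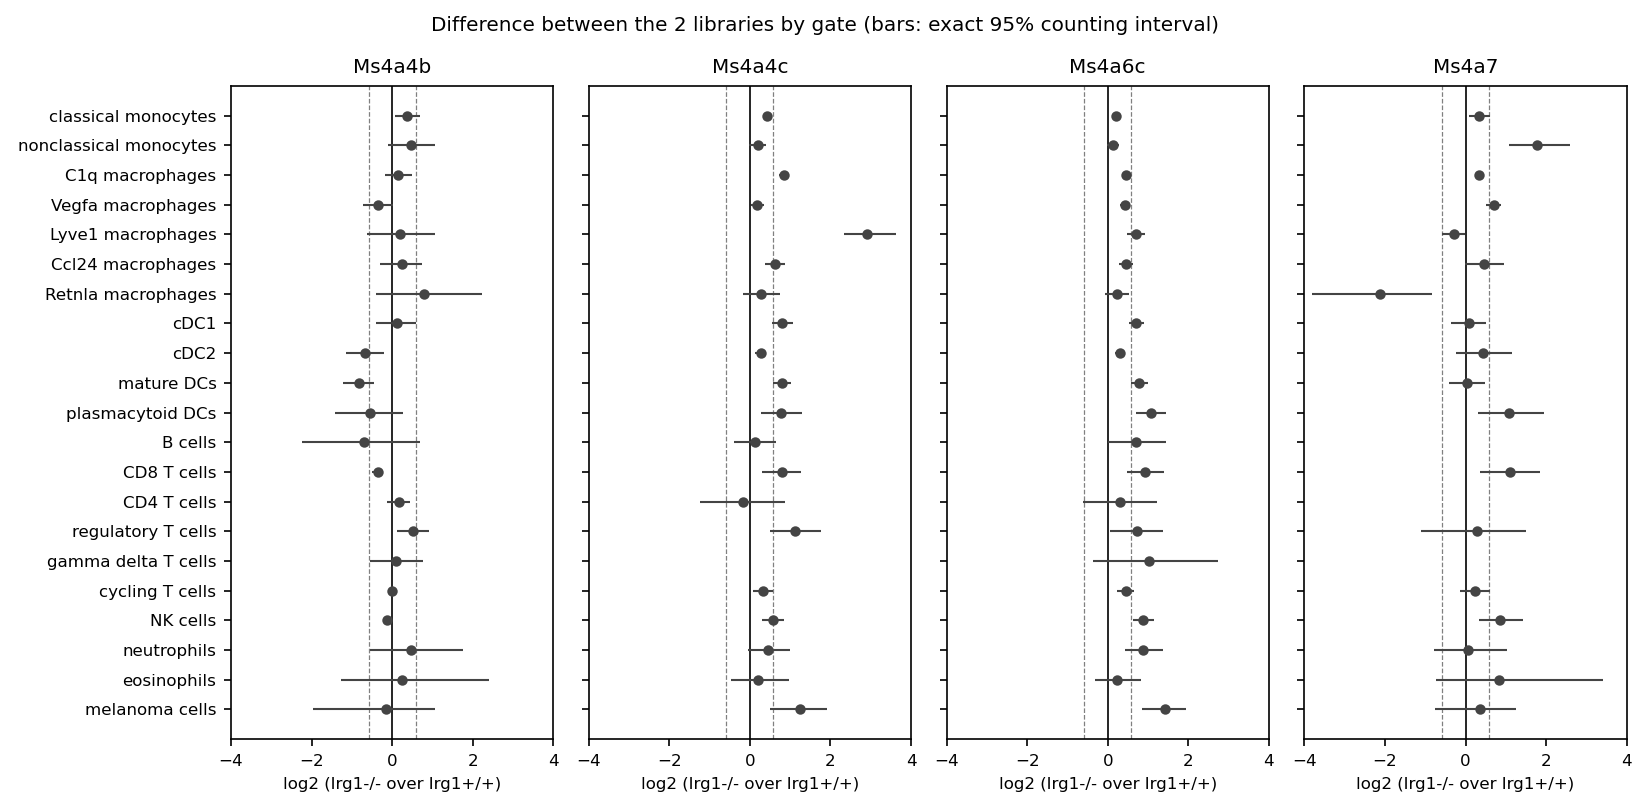
Log2 ratio of CPM in the library labelled Irg1-/- over the Irg1+/+ library for Ms4a4b, Ms4a4c, Ms4a6c and Ms4a7 in 21 gates, with 95% intervals that cover counting error only and dashed lines at 1.5-fold. Ms4a6c lies above 0 in 21 of 21 gates, 10 of them within 2-fold of the melanoma gate in at least 1 library, and Ms4a4b on both sides of 0, and Ms4a7 ranges from -2.13 in Retnla macrophages to 1.79 in nonclassical monocytes.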

How the data were processed

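The authors deposited 1 matrix of raw UMI counts for each of the 2 libraries. Per the labels, cells were captured with BD Rhapsody and read on an Illumina instrument. The submitters' processing notes name CASAVA 1.8, UMI-tools, Seurat and GRCm38, and the methods name fastp, UMI-tools and STAR with Ensembl release 100 annotation. UMIs are captured molecules, tagged near the 3′ end of the transcript.

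Kept were cells in which more than 200 genes were detected and less than 10% of UMIs were mitochondrial (124 and 102 left out), and the 13 mitochondrial genes were then dropped. The median cell had 4528 and 4594.5 UMIs. A cell took the class whose summed markers stood at least 2-fold above the mean over all cells with at least 3 markers detected, or at least 2 markers with 5 UMIs, and at least 2-fold above the next class. This scoring was set after the data were seen. The 8 members, the gene lists and the markers were chosen with earlier results of these data known. No doublet caller was used. Cells whose leading class was less than 2-fold above the next stayed outside the gates. A cell with markers of more than one class was still gated where the leading class passed that margin. The top 5% of cells by UMIs were left out as an alternative.

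Sums of UMIs by gate and library were scaled to CPM, with 95% intervals from the exact Poisson method, shares with Clopper-Pearson intervals, and log2 ratios with 0.5 UMIs added and exact conditional binomial intervals, which cover counting error only. Genes with at least 20 UMIs in a comparison were counted, at 2-fold in both libraries between gates and at 1.5-fold between libraries. Named genes were the members, all other Ms4a genes with Tmem176a and Tmem176b, the 3 most similar profiles among genes with at least 200 UMIs, and up to 4 genes of each list with the most UMIs. The lists were described partners, mature B cell genes, type I and type II interferon response and dissociation stress. Clec7a and Mx1 of these lists and the marker Tcrg-C1 were not among the symbols used here. Positions came from GENCODE M21, in which 31107 identifiers were found, and promoter windows from RefSeq, which matched 6 members. Ms4a1 and Ms4a6d were named only. One gene with a similar profile is not reported here. Python 3.11.15, scipy 1.17.1 and R 4.3.3 were used. TMM factors came from edgeR 4.0.16 as an alternative, and no count model was fitted. Scripts were tested on simulated data. Alternatives changed the mitochondrial limit, the gate margin, the depth, the scaling, the pseudocount and the count minimum.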

Additional observations from a re-analysis of the deposited data

Results flagged for a closer look

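The difference in Ms4a7 between the libraries was above 0 in 16 of 18 gates and below 0 in 2, with a median log2 ratio of 0.35, and of the 6 gates past 1.5-fold with an interval that did not hold 0, 5 pointed up and 1 down. The log2 ratio of the library labelled Irg1-/- over the Irg1+/+ library was 1.79 in nonclassical monocytes, 0.699 in Vegfa macrophages, 1.09 in plasmacytoid DCs, 1.1 in CD8 T cells and 0.851 in NK cells, and -2.13 in Retnla macrophages, where it rested on 20 and 6 UMIs from 13 and 25 cells. Of these 6 gates, Vegfa macrophages alone were over 2 times the melanoma gate in both libraries. In the same order of libraries, the 4 macrophage markers, all detected with C1qb the most abundant, summed to 776 and 894 CPM in nonclassical monocytes, 2194 and 2140.3 CPM in Vegfa macrophages, 814 and 1357 CPM in plasmacytoid DCs, 574 and 722 CPM in CD8 T cells, 632 and 697 CPM in NK cells, and 6308 and 3719 CPM in Retnla macrophages. Of 8 dissociation stress genes, 6 were at least 1.5-fold higher in nonclassical monocytes (median 0.69), where 8.33% of all genes were. The median of the stress genes was 0.27 in Vegfa macrophages, -0.36 in plasmacytoid DCs and 0.29 in CD8 T cells. It was 0.36 in NK cells and -0.089 in Retnla macrophages. The part of these markers and stress genes in the result was not tested. The difference between gates was not tested.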

How the results depend on the processing

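No paired analysis was possible because each genotype had 1 library. Over 9 contrasts, 11 pairs of member and contrast were at least 2-fold higher and 14 lower in both libraries. Only pairs with at least 20 UMIs in each library were counted. The C1q over other gate, C1q subset and regulatory T contrasts were not among the 9. Under every alternative run the counts were within 1.5 times of these. Of 36 higher and 5 lower pairs of member and gate between libraries, 23 and 2 were left with a minimum of 100 UMIs. The lower count was 12 with 1 UMI, 9 with the gate margin doubled, 3 with the mean of each cell's CPM, 13 with cells thinned to 2000 UMIs and 3 without the top 5% of cells. With pairs near the melanoma gate left out, a choice made after seeing the data, the counts were 10 and 1. On the log2 scale, Ms4a4c in classical monocytes over CD8 T cells was 3.22 with mitochondrial UMIs under 5% and 3.99 with the doubled margin (Irg1+/+), and 3.60 with TMM (labelled Irg1-/-). Ms4a4b in NK over CD8 T cells was -0.39, -0.42, -0.12 and -0.13 with the 5% limit, the doubled margin, the mean cell and without the top 5% (Irg1+/+), and -0.33, -0.19, 0.086 and 0.077 with the margin, thinning, without the top 5% and with TMM (labelled Irg1-/-), so its direction there depends on the setting. Ms4a1 in B over T cells was 9.02 and 9.44 with the margin and thinning (labelled Irg1-/-). Ms4a7 in C1q macrophages over classical monocytes was 3.78 and 4.22 with the margin. Ms4a4b in regulatory over CD4 T cells was -2.49 and -1.72 with the margin and thinning (Irg1+/+), and -1.20 with the mean cell (labelled Irg1-/-). Ms4a6c in C1q over Vegfa macrophages was 0.85 with TMM, under 2-fold, and Ms4a4b in the MHC class II over the Mrc1 subset reversed to 0.42 with the margin (both Irg1+/+). Between libraries in C1q macrophages, Ms4a4c was 0.58 with the mean cell and 0.49 thinned. Ms4a6c was 0.32, 0.31, 0.34 and 0.52 with the margin, mean cell, thinning and TMM, and Ms4a7 was 0.25, 0.13, 0.20 and 0.22 with the margin, mean cell, thinning and without the top 5%. The library difference reversed for Ms4a6b in Lyve1 macrophages (-1.94), Ms4a7 in eosinophils (-0.22) and Ms4a4b in B cells (0.17) with the margin, for Ms4a4b in Retnla macrophages (-0.76) and Ms4a4a in cycling C1q macrophages (2.04) thinned, and for Ms4a4b in B cells (0.34), Ms4a6b in neutrophils (-0.25) and Ms4a6d in eosinophils (0.81) without the top 5%. Of 24 likeness values 7 moved by rank, and that of Ms4a1 with Igkc reversed (-0.098). The cause of these shifts was not tested. The gate with the highest level was the same in 106 of 112 values, the exceptions including Ms4a7 in the Irg1+/+ library, highest in Lyve1 macrophages with the margin. Of 34 co-detection shares 30 moved without thinning. Leaving out shared barcodes, also chosen after seeing the data, moved no value past its interval.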

Other observations

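Beyond the 8 members, Ms4a8a was highest in the Retnla macrophages, which express the secreted protein RELM-alpha, at 246 CPM (188 to 316) and 335 CPM (276 to 402), against 107.3 and 112.7 CPM in classical monocytes and 32.4 and 43.2 CPM in C1q macrophages. Ms4a14 was near absent from classical monocytes, at 5.49 and 8.56 CPM, and reached 57.0 CPM (49.0 to 66.0) and 54.1 CPM (45.7 to 63.7) in C1q macrophages, so that its 2 libraries did not differ beyond counting error there. Ms4a2 had 17 and 19 UMIs in all, 5 and 9 of them in the 4 and 6 cells with mast cell or basophil markers. Ms4a4d had 29 and 47 UMIs, of which 3 and 25 came from 7 and 9 cells with fibroblast or endothelial markers. Ms4a15 had 5 and 28 UMIs, Ms4a20 and Ms4a12 3 and 4 each, Ms4a3 2 and 1, and Ms4a5, Ms4a10, Ms4a13, Ms4a18 and Ms4a19 none in either library.

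Tmem176a and Tmem176b encode related membrane proteins and were highest in other cells than the Ms4a genes. Mature DCs, in which Ms4a4c and Ms4a6c stayed within 2-fold of the melanoma gate, had 592 and 698 CPM of Tmem176a, 5.50 and 4.52 times the melanoma gate, and gamma delta T cells 676 and 514 CPM. Tmem176b had 629 and 868 CPM in mature DCs and 604 and 719 CPM in gamma delta T cells, but 322 and 463 CPM in the melanoma gate, so that it too stayed within 2-fold of that gate.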
